A study of Mus musculus with 21 samples.

Results

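*Apoe*, *Trem2*, *Tyrobp*, *Lpl*, *Fabp4*, *Fabp5*, *Cd36*, *Lgals3*, *Abca1* and *Abcg1* are 10 genes through which macrophages take up, carry and release lipid, chosen by name from the 32285 genes of the table. They were followed through the host cells around a transplanted mouse melanoma. Fragments of MT-ret melanoma (MM) were placed under the skin of young adult mT/mG mice of both sexes, whose own cells all carry the red protein tdTomato while the MM cells do not. The primary tumor was cut out at a fixed volume, and lung metastases grew afterwards. Single cells were sequenced in 5 kinds of sample, namely the tumor microenvironment (TME) of primary tumors and that of lung metastases, MM cells sorted from either site, and unchallenged lung with no tumor. The study states that its metastasis samples also held a little adjacent lung without tumor. Cells called those of metastases below can therefore come from that lung. No Cre was present, so tdTomato stayed on in every host cell and marks no cell type. The sources used here give no strain for the mice of single samples. The TME was sorted as living tdTomato+ cells or as living tdTomato+ CD45- cells. The second gate takes out leukocytes, and which library had it is not given, so the numbers of macrophages per library follow the gate and are not results.

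Macrophages meet lipid as lipoproteins, as dying cells and, in the alveolus, as surfactant. CD36 brings fatty acids and oxidized lipoproteins into the cell, TREM2 senses lipids and signals through the adaptor TYROBP, and lipoprotein lipase frees fatty acids from triglycerides outside the cell. Fatty acid binding proteins carry them inside it, and ABCA1 and ABCG1 pass cholesterol out to lipoprotein particles, with APOE as a main apolipoprotein that macrophages release. Alveolar macrophages, which clear surfactant, depend on the nuclear receptor PPARγ and are known for their lipid program. Macrophages that carry TREM2, APOE and FABP5 have been described in fat, atherosclerotic vessels and tumors.

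The counts held 100359 cells in 16 libraries once library names with identical cells were counted once. In the 4 libraries of unchallenged lung, the 4 of the metastasis TME and the 4 of the primary tumor TME, 1777036 to 53506609 unique molecular identifiers (UMIs, 1 per captured RNA molecule) were counted. Unchallenged lung replicate 6 stood apart, with 25966 cells at a median of 1605 UMIs, against medians of 3641 to 4695 in the other 3, and results are given without it where it touches a call. Primary tumor TME replicate 6 was shallower still, with 2383 cells at a median of 1203 UMIs. The other libraries of that group had medians of 4423 to 5356. For the metastasis TME and the primary tumor TME alike, the labels list replicates 1 to 3 as a single sample, so these were summed as 1 library. The names in the files, whose numbers do not all match the labels, place the first libraries (those labelled replicate 1 in lung and replicates 1 to 3 at the tumor sites, of which the names list 2 and 3 for metastases) in 1 sequencing run, replicate 4 in another and replicates 5 and 6, from different mice, in another again. They give each of replicates 5 and 6, and part of replicates 1 to 3, the same mouse at both tumor sites, but for replicates 5 and 6 the same cells also stand under a second mouse name, and those of metastasis replicate 6 also under the name of a sorted MM library of another mouse, so its mouse and sort are in doubt. Distinct libraries shared at most 1.47% of the cell barcodes of the smaller one. Cell types were rebuilt by clustering without the members, and clusters of myeloid cells were named from marker lists. Alveolar macrophages (*Chil3*, *Marco*, *Siglecf*, *Ear1* and 4 others) were 3452 cells and C1q macrophages (*C1qa*, *C1qb*, *Pf4*, *Ms4a7* and 4 others) 3187. Classical monocytes (*Ly6c2*, *Ccr2* and 5 others) were 942 and nonclassical monocytes (*Cd300e*, *Treml4* and 6 others) 2032. All 8 markers of the 2 macrophage lists and of nonclassical monocytes, and all 7 of classical monocytes, were raised in every myeloid cluster given the name. Of 16004 myeloid cells, 5744 in 5 clusters were left unnamed, 5672 of them from unchallenged lung, and they enter no comparison. Over all kinds of cell, 36801 of the 100359 were left unnamed.

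A level below is a CPM value, the UMIs of a gene in 1 cell type of 1 library scaled to 1000000 UMIs of all genes, given where the library has at least 20 cells of the type. Libraries, not cells, were compared, with edgeR's quasi-likelihood test across all genes and Benjamini-Hochberg adjustment, and genes below 0.05 after adjustment are those called. The lungs are the same controls in both tumor comparisons. No normal skin was sampled, so in comparisons of primary tumors with lung the organ and the tumor cannot be told apart.

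All 10 genes are protein coding, and their positions are those of the GRCm38 assembly. Of the receptors and their partners, *Cd36* lies at chr5:17781690-17888801 on the minus strand, *Trem2* at chr17:48346401-48354147 on the plus strand and its adaptor *Tyrobp* at chr7:30413760-30417585 on the plus strand. *Lgals3*, which encodes galectin-3, a lectin that binds sugars on damaged lysosomes and at the cell surface and can bind TREM2, lies at chr14:47367751-47386160 on the plus strand. *Lpl*, the lipase, lies at chr8:68880491-68907448 on the plus strand. The fatty acid binding proteins *Fabp4* and *Fabp5* lie on the same chromosome, at chr3:10204088-10208576 on the minus strand and chr3:10012548-10016607 on the plus strand. On the release side, *Apoe* lies at chr7:19696109-19699188 on the minus strand, *Abca1* at chr4:53030787-53159895 on the minus strand and *Abcg1* at chr17:31057675-31117988 on the plus strand. The RefSeq table of promoters held 5 of the 10 members. The 250 bases before the RefSeq start are shown for *Trem2*, *Cd36* and *Lgals3*, because these 3 of the 4 members that were called in C1q macrophages are in the table. They are *Trem2* at chr17:48346151-48346400 (plus strand), *Cd36* at chr5:17835897-17836146 (minus strand) and *Lgals3* at chr14:47373610-47373859 (plus strand), all GRCm38.p6, 5′ to 3′, and the capitals mark a match to the motif of the myeloid factor PU.1.
Trem2: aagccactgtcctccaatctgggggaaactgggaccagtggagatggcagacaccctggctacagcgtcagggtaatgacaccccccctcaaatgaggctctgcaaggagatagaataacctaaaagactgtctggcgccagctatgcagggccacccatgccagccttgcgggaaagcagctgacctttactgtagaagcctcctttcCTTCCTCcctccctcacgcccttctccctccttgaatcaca
Cd36: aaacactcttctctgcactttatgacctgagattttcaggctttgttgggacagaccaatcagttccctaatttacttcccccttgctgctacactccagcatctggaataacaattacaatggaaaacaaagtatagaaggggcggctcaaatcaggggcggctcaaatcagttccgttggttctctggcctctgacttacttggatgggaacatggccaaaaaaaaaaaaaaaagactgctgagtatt
Lgals3: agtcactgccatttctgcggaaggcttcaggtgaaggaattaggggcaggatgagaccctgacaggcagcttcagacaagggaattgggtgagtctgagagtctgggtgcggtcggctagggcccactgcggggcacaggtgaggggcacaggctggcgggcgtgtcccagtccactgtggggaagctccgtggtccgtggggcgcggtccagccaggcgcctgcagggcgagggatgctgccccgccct
The search was for GAGGAAG (PU.1), CACGTG (the E-box read by lysosomal and lipid regulators) and TGACTCA (AP-1), on both strands with 0 mismatches. The *Trem2* window holds CTTCCTC, the PU.1 letters on the other strand, which begins 41 bases before the start, and the *Cd36* and *Lgals3* windows hold none of the 3. Among 32851 promoters of the same length, GAGGAAG is in 10.6%, CACGTG in 6.02% and TGACTCA in 4.46%, so a single match is common and describes the letters alone. The *Cd36* and *Lgals3* windows lie inside the annotated genes, since the RefSeq start is downstream of the gene's first base, and that of *Trem2* lies just before the gene.

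In unchallenged lung the members did not share 1 cell type (heat map of levels by cell type). C1q macrophages, the resident interstitial kind, led for the apolipoprotein and the receptor. *Apoe* was at 6832, 10990.4, 5786 and 5162 CPM in their replicates 1, 4, 5 and 6, and every one of these lay above the nonclassical monocytes, the next type, at 2669, 4165, 1768 and 2575 CPM. *Trem2* was at 189, 170.0, 111 and 144 CPM in C1q macrophages and at 77.0, 82.9, 47.1 and 40.9 CPM in alveolar macrophages, which again did not overlap. Alveolar macrophages led for lipolysis and for cholesterol export through *Abcg1*. Their *Lpl* was at 1931, 2053, 3312 and 2848 CPM, against 587 ± 115 CPM (SD, n = 4) in general capillary endothelium, which anchors lipoprotein lipase on its surface. Their *Abcg1* was at 1482, 1556, 1551 and 1116 CPM, and the next type, conventional dendritic cells, had 156 ± 169.7 CPM (SD, n = 2). Replicate 6 was the lowest of the 4 for *Abcg1* and held the most alveolar macrophages, 2924.

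Other members were shared in lung with cells outside the macrophages, or were highest there. *Cd36* was highest in general capillary endothelium, with 3300.1 ± 660.5 CPM (SD, n = 4), in aerocyte capillary endothelium, with 2432 ± 320.1 CPM (SD, n = 4), and in venous or large vessel endothelium, with 1459 ± 380.5 CPM (SD, n = 4), against 285 ± 102 CPM (SD, n = 4) in C1q macrophages. The first pair of endothelial types overlapped and the third lay below them. *Fabp4* was highest in nonclassical monocytes, the patrolling monocytes of the vessel wall, with 323 ± 57.3 CPM (SD, n = 4), and these overlapped with venous endothelium but not with alveolar macrophages, which had 183 ± 42.7 CPM (SD, n = 4). C1q macrophages had no *Fabp4* UMI in replicates 1, 4 and 5 and 34.1 CPM in replicate 6. *Fabp5* was shared at the top by alveolar type 2 cells, the surfactant makers, with 426 ± 293 CPM (SD, n = 2), and alveolar macrophages, with 356 ± 52.7 CPM (SD, n = 4). C1q macrophages were far below both, at 48.4, 20.0, 8.85 and 60.6 CPM. *Lgals3* ran from 1681 ± 439 CPM (SD, n = 4) in alveolar macrophages over 1395 ± 304 CPM (SD, n = 4) in classical monocytes to 709.8 ± 314 CPM (SD, n = 4) in C1q macrophages, with each neighbor overlapping the next. *Tyrobp* was spread over all leukocytes that signal through it, with 4336 ± 982 CPM (SD, n = 4) in neutrophils and 2234 ± 688 CPM (SD, n = 3) in NK cells beside 1870.4 ± 449 CPM (SD, n = 4) in C1q macrophages. *Abca1* was alike in C1q macrophages, fibroblasts and alveolar macrophages, at 125, 116 and 109 CPM on average, and these overlapped.

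**Figure D1:**
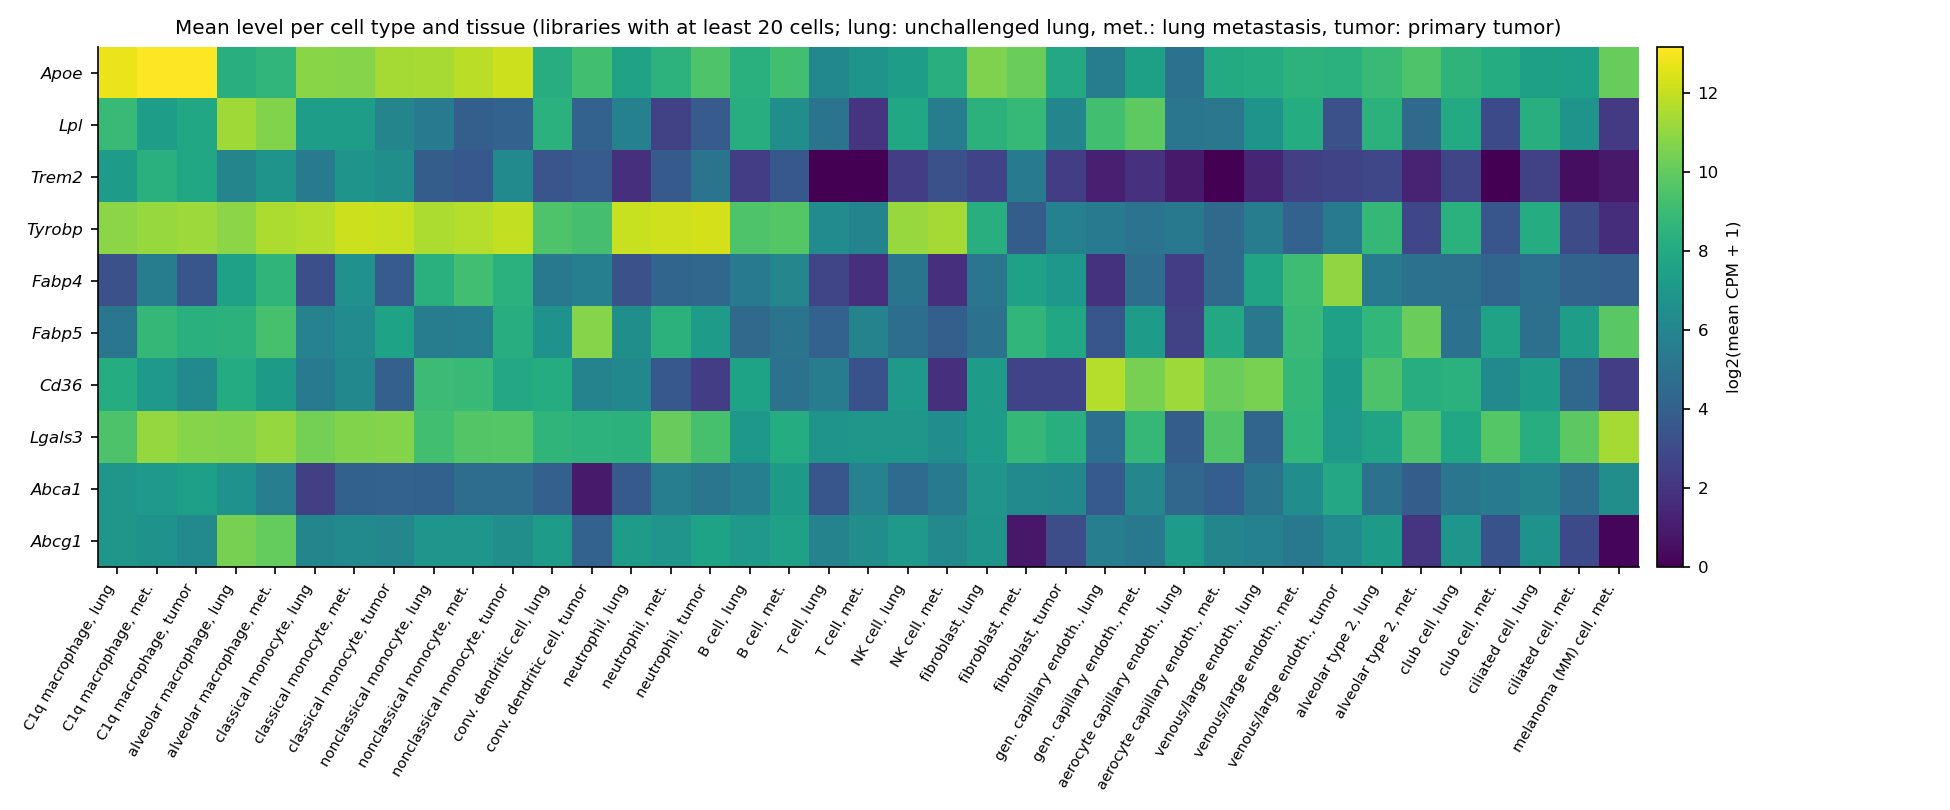
Heat map of the 10 members (rows) over cell types of the 3 tissues (columns), colored by log2 of the mean CPM plus 1 over libraries with at least 20 cells. *Apoe* and *Trem2* are brightest in C1q macrophages, *Lpl* and *Abcg1* in alveolar macrophages, and *Cd36* in the capillary endothelium of lung.

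Free RNA in the droplets sets a floor under these levels, which lymphocytes (B, T and NK cells) show for the members they do not use. In unchallenged lung their *Trem2* was at 0 to 12.1 CPM, their *Fabp5* at 7.20 to 69.3 CPM and their *Apoe* at 71.6 to 463 CPM over the 4 libraries. Their *Lpl* was at 0 to 801 CPM. The upper ends of *Fabp5* and *Lpl* come from replicate 6. Library for library, in the order of replicates 1, 4, 5 and 6, the lymphocytes had *Fabp5* at 9.35, 7.20, 8.82 and 69.3 CPM beside 48.4, 20.0, 8.85 and 60.6 CPM in C1q macrophages, so those of replicates 5 and 6 were at or under that floor. Their *Lpl* was at 0, 20.9, 25.4 and 801 CPM beside 227, 123, 598 and 1001 CPM, which was above the lymphocytes in all 4. In metastasis replicates 1 to 3 and 4 the lymphocytes had *Fabp5* at 34.4 and 33.6 CPM, and their *Lgals3* was at 127 to 233 CPM there and 49.8 to 336 CPM in lung. T cells had more *Lgals3* than NK cells in lung replicates 4 and 5 (105 and 150 against 29.2 and 36.9 CPM) and less in replicate 6 (79.0 against 312 CPM). What part of the lymphocyte *Lgals3* is free RNA was not tested. Metastasis replicates 5 and 6 held 7 and 17 lymphocytes, too few for a firm floor, with 3 and 7 *Fabp5* UMIs (269 and 176 CPM) and 20 and 33 *Lgals3* UMIs (1797 and 829 CPM). The C1q macrophages of replicate 5 had 269.6 CPM of *Fabp5* and 2000.4 CPM of *Lgals3*, close to those values, and those of replicate 6 had 559 and 2086 CPM, above them. The floor of *Cd36* was far from even. Lymphocytes had it at 46.7, 83.3, 65.6 and 324 CPM in the lung libraries, where C1q macrophages were above them in each, and at 25.8 and 3.36 CPM in metastasis replicates 1 to 3 and 4, so it too was lower in metastases. In lung replicate 4 the lymphocytes differed among themselves, with 244 CPM in B cells and 21.3 CPM in NK cells. The primary tumor replicates 1 to 3 and 4 held 18 and 13 lymphocytes, with 5 and 7 *Fabp5* UMIs (108 and 140 CPM), where C1q macrophages had 328 and 326 CPM.

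The main comparison was of C1q macrophages between the tissues. Of the 10 members, 3 were called in metastases against lung (*Fabp5*, *Lgals3* and *Trem2*, all higher) and 3 in primary tumors against lung (*Fabp5* and *Lgals3* higher, *Cd36* lower), and 0 between metastases and primary tumors, where 1 member (*Fabp4*) had an unadjusted p under 0.05 and DESeq2 called 0. Over all 6855 genes tested, 5.91%, 5.84% and 0.0875% were called. By direction, 3.21% were higher and 2.7% lower in metastases, and 2.77% and 3.06% in primary tumors. The metastasis group was 136, 24, 62 and 105 C1q macrophages (replicates 1 to 3, 4, 5 and 6), the primary tumor group 423 and 2051 (replicates 1 to 3 and 4), and the lung group 36, 46, 40 and 242 (replicates 1, 4, 5 and 6). Primary tumor replicates 5 and 6 had 3 and 1 and were not used.

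*Fabp5*, the fatty acid carrier, had the largest log2 difference in both tumor sites of the 9 members for which a fold is given, that is without *Fabp4*. It was at 48.4, 20.0, 8.85 and 60.6 CPM in C1q macrophages of lung, at 526, 368, 269.6 and 559 CPM in those of metastases and at 328 and 326 CPM in those of primary tumors, in the order of replicates just given. The lowest tumor library was above the highest lung library. The log2 difference was 3.60 ± 0.42 (SE, adjusted p = 0.00011) in metastases, a 12.2-fold rise, and 3.22 ± 0.45 (SE, adjusted p = 0.00055) in primary tumors, a 9.34-fold rise. Both calls held in each of the 10 fits that left out 1 library. Metastases and primary tumors had means of 431 ± 136 CPM (SD, n = 4) and 327 ± 1.43 CPM (SD, n = 2), and their log2 difference was 0.38 ± 0.42 (SE, adjusted p = 1.00).

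*Lgals3* rose with it. Galectin-3 transcripts were at 697, 1143, 598 and 401 CPM in lung, at 1930.5, 2644, 2000.4 and 2086 CPM in metastases and at 2028 and 1552 CPM in primary tumors, again with no overlap between tumor and lung. The log2 difference was 1.57 ± 0.31 (SE, adjusted p = 0.0056), or 2.97-fold, in metastases, where all 10 fits with 1 library left out kept the call. It was 1.36 ± 0.36 (SE, adjusted p = 0.034), or 2.57-fold, in primary tumors, where 5 of the 10 such fits lost it. These were the fits without primary tumor replicates 1 to 3 (0.41), without primary tumor replicate 4 (0.12), without lung replicate 1 (0.063), without lung replicate 5 (0.11) and without lung replicate 6 (0.076), with the adjusted p in parentheses.

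*Trem2*, the lipid receptor, was higher in metastases. Its levels were 189, 170.0, 111 and 144 CPM in lung, 363, 278, 431 and 252 CPM in metastases and 214 and 239 CPM in primary tumors, so every tumor library was above every lung library. The log2 difference was 1.12 ± 0.28 (SE, adjusted p = 0.026), a 2.17-fold rise, in metastases and 0.61 ± 0.32 (SE, adjusted p = 0.28) in primary tumors. The call in metastases was lost in 5 of the 10 fits with 1 library left out, with adjusted p in parentheses: without metastasis replicates 1 to 3 (0.058), without metastasis replicate 5 (0.053), without lung replicate 4 (0.0501), without lung replicate 5 (0.11) and without lung replicate 6 (0.072). Nor was *Trem2* called in metastases with the replicate number as a block. *Tyrobp*, its adaptor, was at 2381, 2107, 1567 and 1427 CPM in lung, 3086, 1085, 3001 and 1763 CPM in metastases and 2553 and 2240.4 CPM in primary tumors, and the groups overlapped. Its log2 differences from lung were 0.26 ± 0.34 (SE, adjusted p = 0.72) in metastases and 0.39 ± 0.41 (SE, adjusted p = 0.62) in primary tumors.

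*Cd36*, the scavenger receptor for fatty acids, went the other way. C1q macrophages had 198, 223, 292 and 426 CPM in lung, 129, 35.9, 95.7 and 272 CPM in metastases and 95.9 and 54.7 CPM in primary tumors. Both primary tumor libraries were below every lung library, while metastasis replicate 6 lay inside the range of lung. It fell by 1.88 ± 0.50 (SE) on the log2 scale in primary tumors (3.67-fold, adjusted p = 0.035), and in metastases the difference was -0.96 ± 0.40 (SE, adjusted p = 0.18). The call in primary tumors was lost in 5 of the 10 fits with 1 library left out, namely without primary tumor replicates 1 to 3 (0.17), without primary tumor replicate 4 (0.36), without lung replicate 4 (0.051), without lung replicate 5 (0.080) and without lung replicate 6 (0.093). Lung capillary endothelium holds far more *Cd36* than any macrophage, and the summed capillary markers of C1q macrophages were at most 71.9 CPM in lung, 56.5 CPM in metastases and 5.73 CPM in primary tumors. The part of free RNA, whose *Cd36* in lymphocytes was also highest in lung, was not tested.

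The lipase, the second fatty acid carrier and the release genes were not called in either tumor site. *Lpl* was at 227, 123, 598 and 1001 CPM in lung, 234, 17.9, 200.0 and 209.8 CPM in metastases and 252 and 230.2 CPM in primary tumors, with log2 differences of -1.40 ± 0.54 (SE, adjusted p = 0.14) and -0.93 ± 0.65 (SE, adjusted p = 0.42). Metastasis replicate 4 was the lowest library, and the groups overlapped. *Fabp4* was at 0, 0, 0 and 34.1 CPM in lung, 80.2, 0, 82.6 and 26.2 CPM in metastases and 11.1 and 9.67 CPM in primary tumors. Since 3 lung libraries were at 0, no fold is given for it, and its adjusted p was 0.11 and 0.90. *Apoe*, the main apolipoprotein of these cells, was at 6832, 10990.4, 5786 and 5162 CPM in lung, 8399, 10605, 10411 and 7576 CPM in metastases and 7198 and 10679 CPM in primary tumors. The 3 groups overlapped, and its log2 differences were 0.33 ± 0.29 (SE, adjusted p = 0.57) and 0.34 ± 0.34 (SE, adjusted p = 0.60). *Abca1* ranged from 78.3 to 186 CPM and *Abcg1* from 60.9 to 167 CPM over the 10 libraries, and the log2 differences were 0.14 ± 0.28 (SE, adjusted p = 0.83) and 0.49 ± 0.31 (SE, adjusted p = 0.38) for *Abca1* and -0.15 ± 0.30 (SE, adjusted p = 0.83) and -0.61 ± 0.34 (SE, adjusted p = 0.30) for *Abcg1*. Between metastases and primary tumors the largest value was that of *Fabp4*, 2.40 ± 0.66 (SE, adjusted p = 0.27).

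Within replicates 5 and 6 alone, a single sequencing run with a different mouse for each replicate, C1q macrophages of metastases could be compared with those of lung in 2 libraries each. The log2 differences there were 3.52 (adjusted p = 0.00041) for *Fabp5*, 2.15 (adjusted p = 0.0021) for *Lgals3* and 1.51 (adjusted p = 0.027) for *Trem2*. *Lpl*, which was not called over all libraries, was lower in them, by -1.83 (adjusted p = 0.0066). This rests on 598 and 1001 CPM in lung replicates 5 and 6, where lymphocytes had 25.4 and 801 CPM and the alveolar markers of replicate 6 summed to 1452 CPM, and the part of that RNA was not tested. The *Cd36* value was -0.79 (adjusted p = 0.31). Primary tumors could not be compared in this run, since their replicates 5 and 6 held 3 and 1 C1q macrophages. With the sequencing run as a block over all libraries, an alternative added after the data were seen, the calls in metastases remained, at 3.58 (adjusted p = 7.4e-05) for *Fabp5*, 1.66 (adjusted p = 0.0022) for *Lgals3* and 1.13 (adjusted p = 0.027) for *Trem2*. In primary tumors *Fabp5* was called, at 3.26 (adjusted p = 0.0011), while *Lgals3* at 1.17 (adjusted p = 0.082) and *Cd36* at -1.49 (adjusted p = 0.075) were not. The replicate number as a block, by contrast, ended the call of *Trem2* in metastases. It also ended that of *Lgals3* in primary tumors, and *Cd36* was called as lower in metastases.

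**Figure D2:**
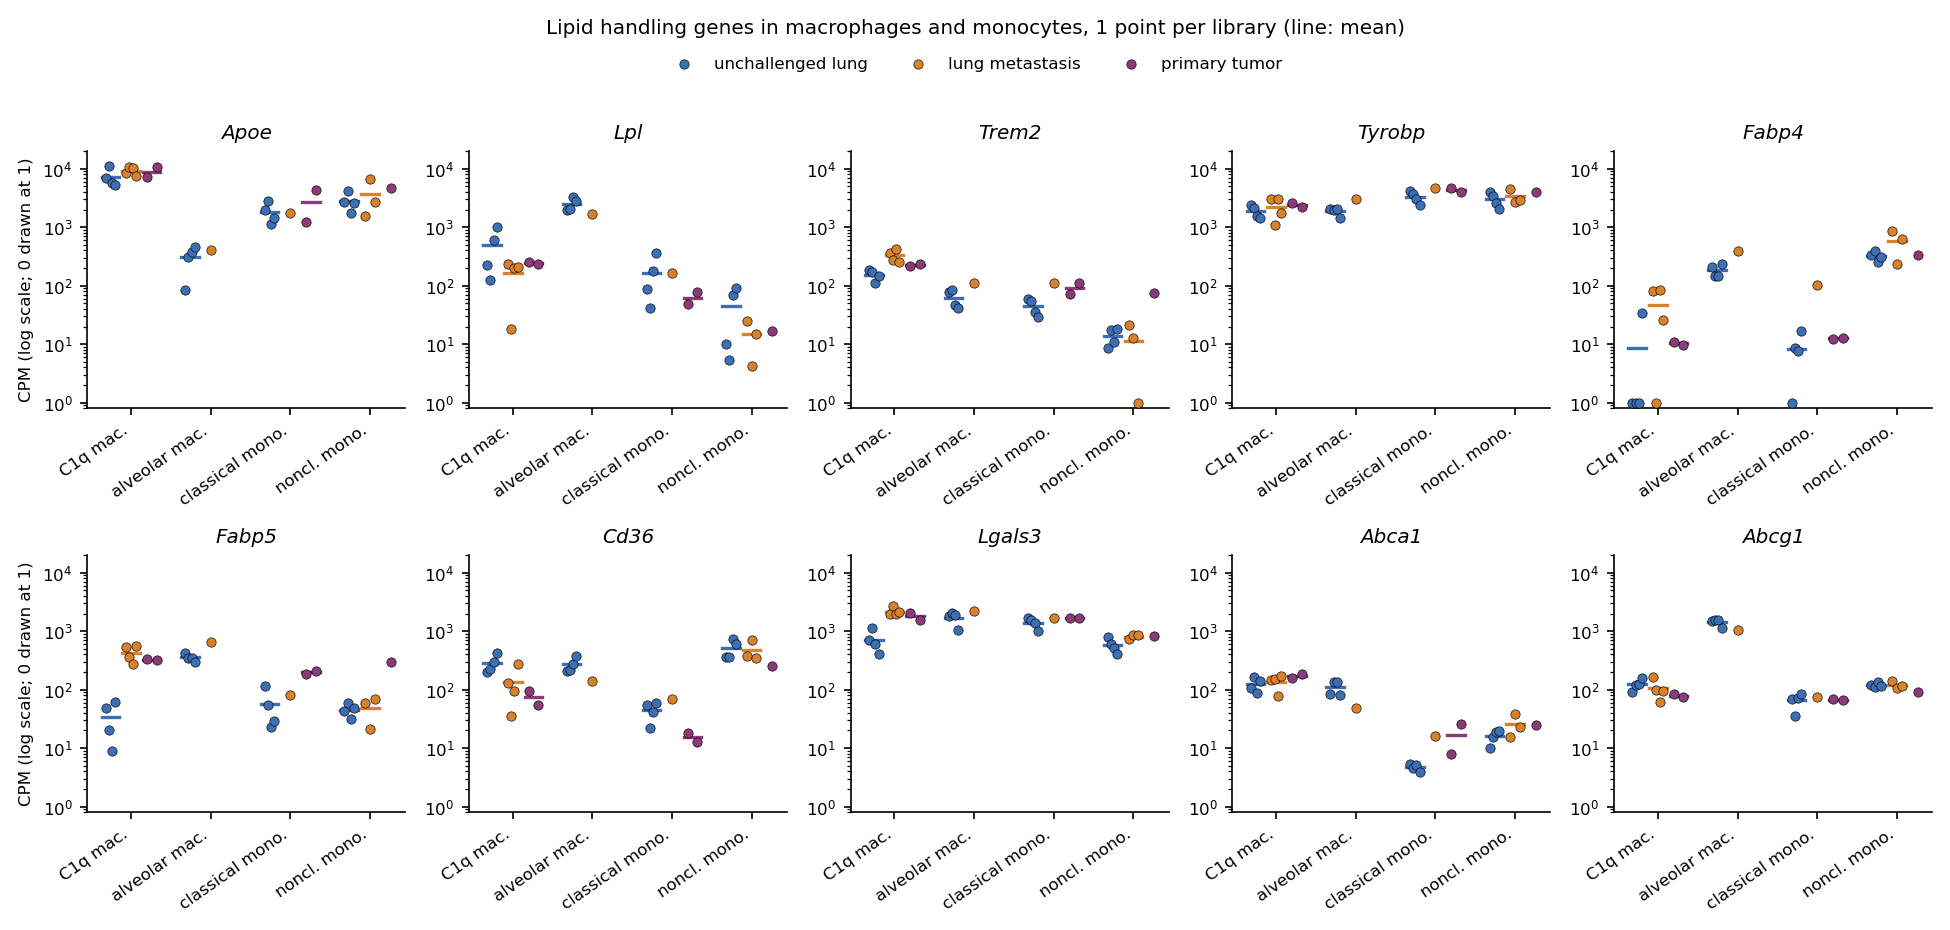
CPM (log axis, 0 drawn at 1) of each member in alveolar macrophages, C1q macrophages, classical and nonclassical monocytes, 1 point per library with at least 20 cells, colored by tissue, with a line at the mean. In C1q macrophages the tumor libraries of *Fabp5* (269.6 to 559 CPM) lie above those of lung (8.85 to 60.6 CPM), while *Apoe* overlaps between the 3 tissues.

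Melanoma cells use some of the same genes, and their RNA was present in the macrophage droplets of tumors. In the 5 libraries with melanoma cells, these had *Fabp5* at 425 to 1579.6 CPM and *Lgals3* at 1655 to 3367 CPM, while *Trem2* reached 0.897 CPM, *Lpl* 3.76 CPM and *Cd36* 22.4 CPM. The 7 melanoma markers summed to 220.3, 538, 5209.7 and 1164 CPM in C1q macrophages of metastases and to 374 and 298 CPM in those of primary tumors, against 53.0 to 70.0 CPM in lung. Metastasis replicate 5 was the highest, equal to 22.7% of a melanoma profile. Scaled to these markers, the melanoma profile of the site gives 6.92, 16.9, 164 and 36.5 CPM of *Fabp5* in the metastasis libraries and 33.4 and 26.6 CPM in the primary tumor libraries. In every one of them the measured *Fabp5* was above that value. For *Lgals3* it gives 27.8, 67.9, 658 and 147 CPM in metastases and 39.5 and 31.4 CPM in primary tumors, also below the measured levels. With the profile taken off the counts, an alternative added after the data were seen, the log2 differences were 3.49 (adjusted p = 0.00058) for *Fabp5*, 1.51 (adjusted p = 0.011) for *Lgals3* and 1.26 (adjusted p = 0.022) for *Trem2* in metastases. In primary tumors they were 3.13 (adjusted p = 0.0020) for *Fabp5*, 1.37 (adjusted p = 0.041) for *Lgals3* and -1.83 (adjusted p = 0.043) for *Cd36*.

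**Figure D3:**
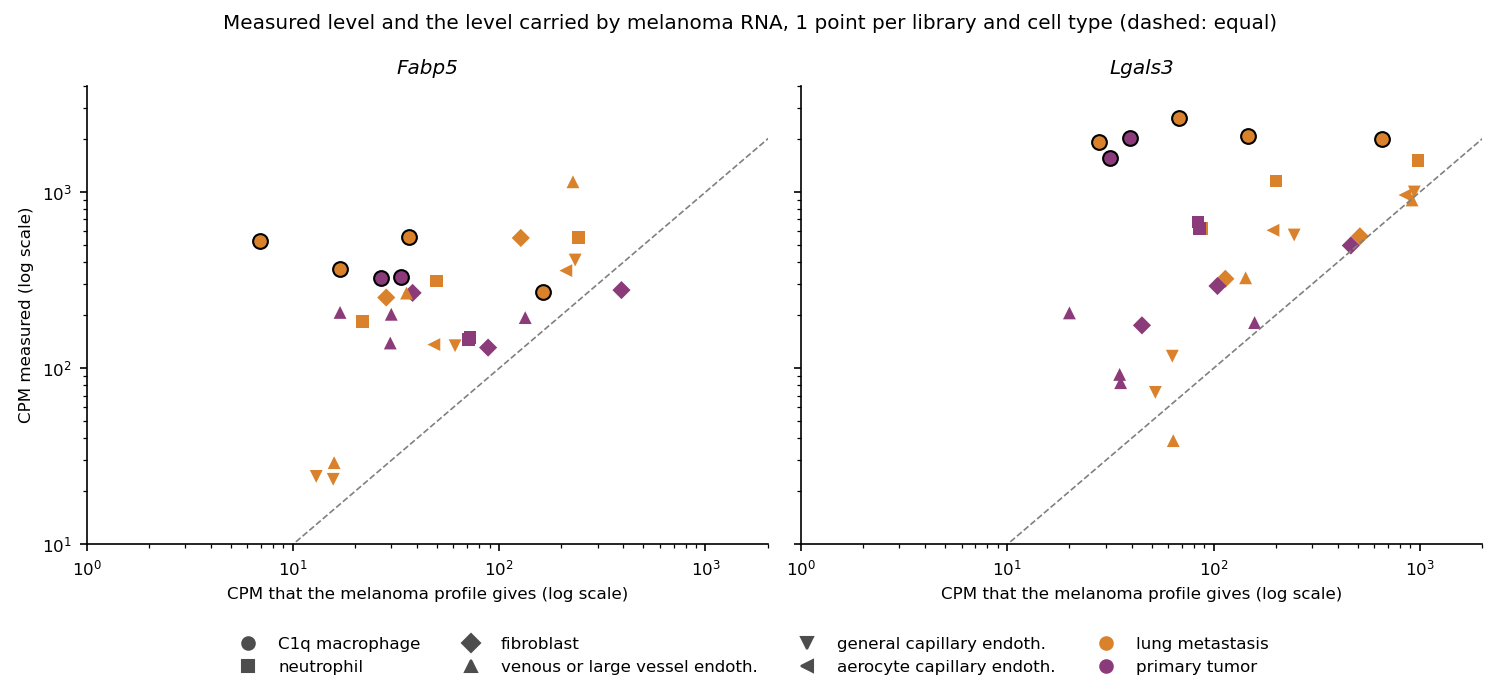
Measured CPM of *Fabp5* and *Lgals3* (vertical, log axis) against the CPM that the melanoma profile gives at the library's melanoma marker level (horizontal, log axis), for 6 cell types of the tumor libraries, with the dashed line where both are equal. The C1q macrophages (black outline) lie above the line in all 6 libraries for both genes.

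Alveolar macrophages carry *Lpl* and *Fabp5* too, and their markers were also summed. These 8 markers reached 1455 CPM in C1q macrophages of metastasis replicates 1 to 3 and 1452 CPM in those of lung replicate 6, and 13.3 to 383 CPM in the other 8 libraries. The sum is not specific to alveolar macrophages, since classical monocytes of primary tumors had 2109 to 2240 CPM. What the alveolar macrophages themselves add was not separated. The part of alveolar macrophage RNA in the *Lpl* and *Fabp5* of the C1q macrophages was not tested. Without lung replicate 6 the log2 difference of *Fabp5* in metastases was 4.08 (adjusted p = 0.00033).

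C1q macrophages fell into 5 clusters when the myeloid cells were clustered again, and the cell numbers given for them follow the gate and the depth of each library. Cluster M4 was found in all tissues (115 lung, 125 metastasis and 1303 primary tumor cells). Cluster M7, led by *Ccl8*, *Folr2* and *Cd163*, was mostly of primary tumors (35, 32 and 733 cells). Cluster M11, led by *Arg1*, *Mmp12* and *Spp1*, held 0 lung cells, 90 metastasis cells and 399 primary tumor cells. Cluster M13 was of lung, with 213 cells there, and M14, led by *Retnla*, held 1 lung, 75 metastasis and 42 primary tumor cells. *Fabp5* was high in several tumor clusters. In M11 it was at 729 and 374 CPM in metastasis libraries and 474 and 735 CPM in primary tumor libraries, in M14 at 349 and 267 CPM in metastasis libraries and 1193 CPM in a primary tumor library of 37 such cells, and in M7 at 758 CPM in a metastasis library of 21 such cells and 263 and 293 CPM in primary tumor libraries. M13, which held most of the lung cells, had 48.1 CPM in its 1 library with enough cells, replicate 6. M13 therefore describes that shallow library, and not the other lungs. In M11, *Lgals3* was at 3439 and 3189 CPM in metastasis and 3547 and 3671 CPM in primary tumor libraries. *Apoe* was lower in this cluster than in M4, at 2208 and 3316 CPM in metastasis and 2708 and 3232 CPM in primary tumor libraries, while in M4 it was at 7867, 11271 and 6452 CPM in lung, 13808 and 13113 CPM in metastases and 8579 and 13834 CPM in primary tumors. These are descriptions of clusters, with no test.

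Within M4 alone, the C1q cluster with at least 20 cells in 2 or more libraries of each tissue, *Fabp5* was at 36.1, 0 and 81.5 CPM in lung libraries with at least 20 such cells, at 298 and 72.2 CPM in metastases and at 229 and 140.3 CPM in primary tumors. The values of lung and metastases overlapped, since the lower metastasis library lay under the highest lung library. In a fit of M4 cells alone, added after the data were seen, the log2 difference of *Fabp5* was 2.52 (adjusted p = 0.17) in metastases and 2.35 (adjusted p = 0.079) in primary tumors, so neither was called. The values for *Lgals3* were 0.72 (adjusted p = 0.58) and 0.75 (adjusted p = 0.37), and for *Trem2* 1.05 (adjusted p = 0.15) and 0.43 (adjusted p = 0.45). *Cd36* was at 282, 261 and 326 CPM in M4 of lung, 123 and 16.7 CPM in metastases and 60.7 and 19.3 CPM in primary tumors. Its log2 difference in primary tumors within M4 was -3.05 (adjusted p = 0.0089), so the lower *Cd36* was called there too. *Trem2* in M4 was at 238, 175 and 188 CPM in lung, 429 and 405 CPM in metastases and 246 and 299 CPM in primary tumors, with no overlap between tumor and lung.

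**Figure D4:**
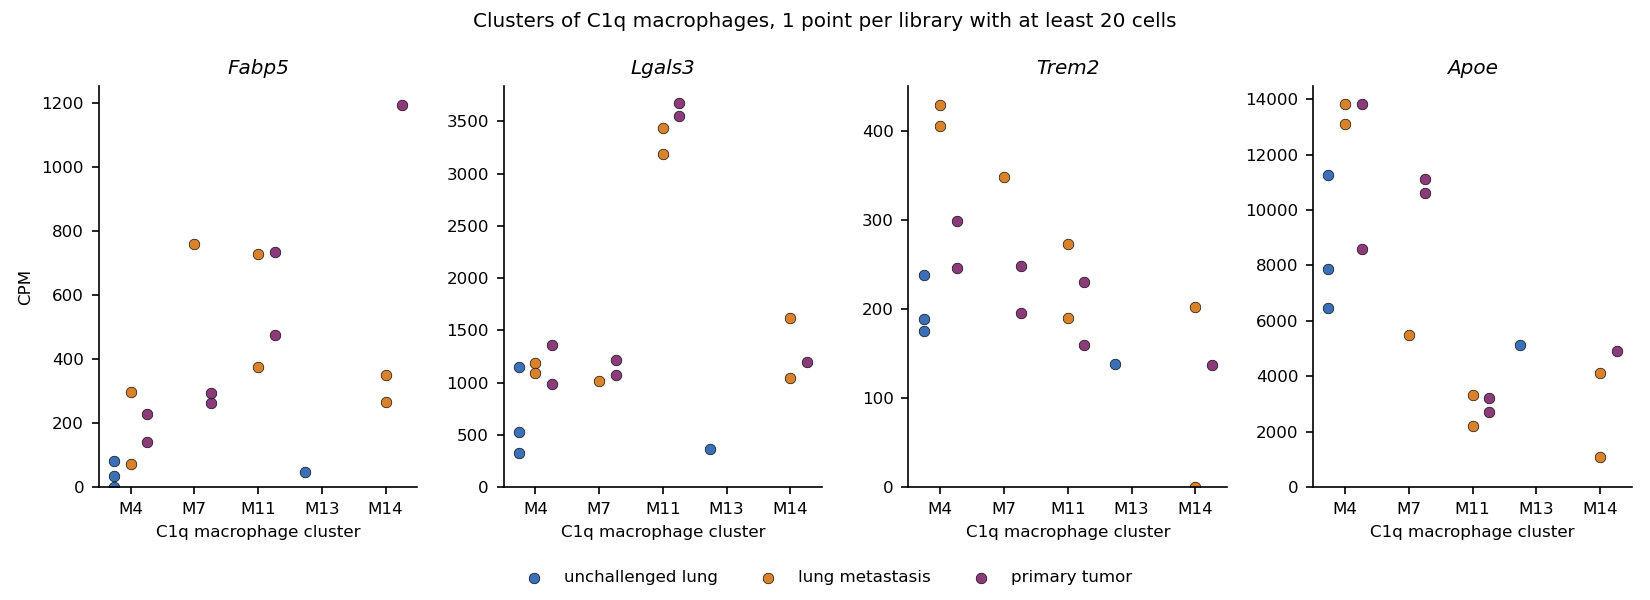
CPM of *Fabp5*, *Lgals3*, *Trem2* and *Apoe* in C1q macrophage clusters M4, M7, M11, M13 and M14, 1 point per library with at least 20 cells of the cluster, colored by tissue. All 4 points of M11 lie above those of the other clusters for *Lgals3*, and lung has points in M4 and M13 only.

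**Figure D5:**
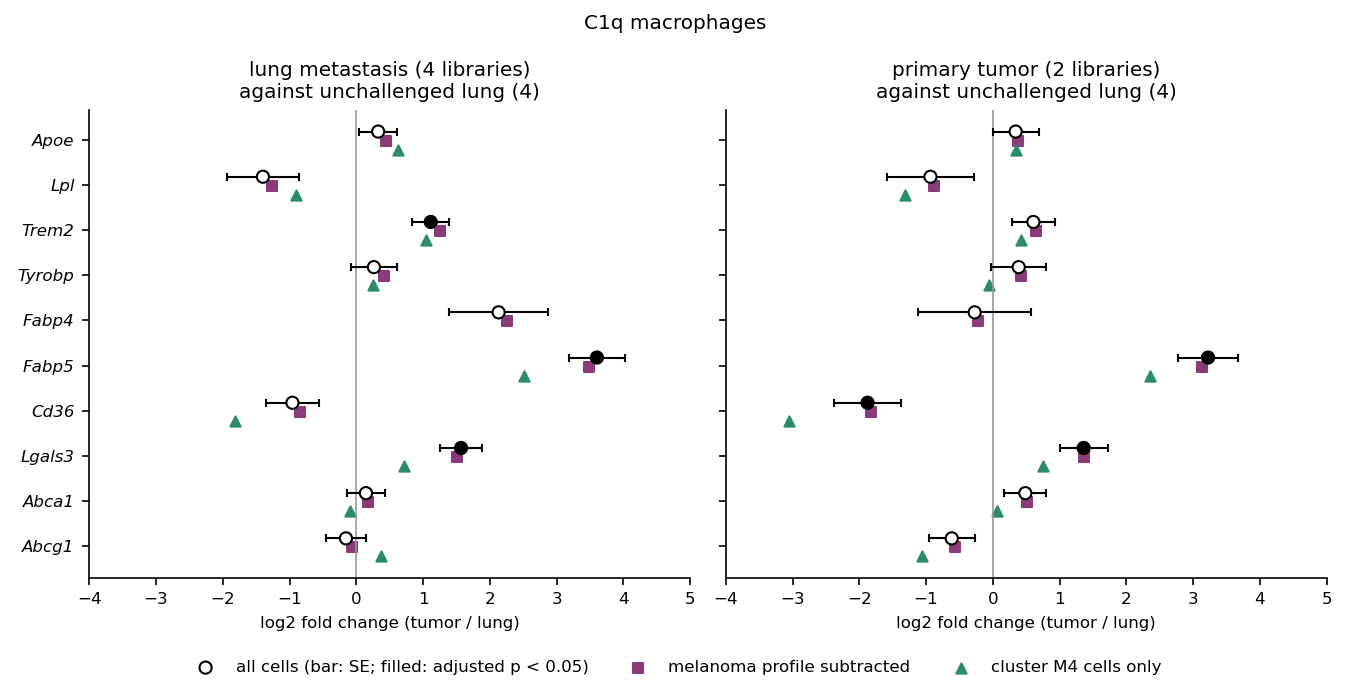
Log2 difference (horizontal) of each member in C1q macrophages of metastases against lung and of primary tumors against lung, with bars of 1 SE. Circles are all cells, filled at an adjusted p below 0.05, squares have the melanoma profile subtracted, and triangles use cluster M4 alone. *Fabp4* is drawn from the fit although 3 lung libraries are at 0, so its position is no measure of size. The triangles of *Fabp5* and *Lgals3* lie closer to 0 than their circles in both panels.

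Shares of cells with a transcript were set at matched depth. With every cell thinned to 1000 UMIs, 11.8, 0, 0 and 3.69% of the C1q macrophages of lung replicates 1, 4, 5 and 6 had a *Fabp5* UMI. The shares were 21.3, 12.5, 39.7 and 18.8% in the metastasis libraries and 16.5 and 14.1% in the primary tumor libraries. The exact 95% binomial interval of lung replicate 1, from 34 cells, was 3.30 to 27.5% and held the shares of all tumor libraries except metastasis replicate 5. The intervals of lung replicates 4, 5 and 6 reached at most 8.81% and overlapped that of metastasis replicate 4, 2.66 to 32.4% from 24 cells, and no other. These intervals cover counting error only. In lymphocytes, which stand for free RNA, the share was 0, 0.614, 0.535 and 6.05% in the lung libraries and 4.88 and 4.73% in metastasis replicates 1 to 3 and 4, so the C1q macrophages of lung replicate 6 were under that background. Before thinning the median was 1532 to 4670.0 UMIs a cell in lymphocytes of lung, 1558 to 7232 in C1q macrophages of lung and 2383 to 6266 in those of metastases. The shares for *Lgals3* were 35.3, 35.6, 27.5 and 26.3% in lung, 65.4, 66.7, 77.6 and 69.3% in metastases and 56.2 and 56.8% in primary tumors, beside 3.85 to 26.9% in lymphocytes of lung. The 26.9% was in lung replicate 6, where the C1q macrophages, at 26.3%, were no higher than the lymphocytes. For *Trem2* they were 14.7, 11.1, 5.00 and 11.1% in lung, 26.5, 16.7, 24.1 and 7.92% in metastases and 15.5 and 16.3% in primary tumors, and these overlapped, beside 0 to 1.42% in lymphocytes of lung. In lung replicates 4 and 5 no *Fabp5* UMI was left in 45 and 40 cells after thinning, where the count of 0 allows up to 7.87% and 8.81% (upper exact limit), and before thinning 6.52% and 5.00% had one. Unthinned, 44.9, 20.8, 62.9 and 40.0% had one in the metastasis libraries and 37.6 and 38.9% in the primary tumor libraries.

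Alveolar macrophages were compared between lung (159, 27, 185 and 2924 cells in replicates 1, 4, 5 and 6) and the metastasis TME, where 1 library had enough of them (133 cells in replicates 1 to 3). None of the 10 members was called by edgeR or DESeq2, 6 had an unadjusted p under 0.05, and 0.0102% of 9852 genes were (1 gene, and 713 at an unadjusted p under 0.05). The spread of the lone metastasis library was taken to be that of the lungs. The lipase *Lpl* was at 1931, 2053, 3312 and 2848 CPM in lung and 1650.0 CPM in metastases, and the exporter *Abcg1* at 1482, 1556, 1551 and 1116 CPM in lung and 1049 CPM in metastases. Both metastasis values lay under every lung library, with log2 differences of -0.53 ± 0.35 (SE, adjusted p = 0.75) and -0.35 ± 0.29 (SE, adjusted p = 0.81). For the fatty acid carriers the metastasis library lay above every lung library. *Fabp4* was at 205, 147, 147 and 232 CPM in lung and 394 CPM in metastases, and *Fabp5* at 425, 349.9, 354 and 297 CPM in lung and 653 CPM in metastases. Their log2 differences were 1.18 ± 0.27 (SE, adjusted p = 0.67) and 0.97 ± 0.26 (SE, adjusted p = 0.67). Without lung replicate 6 the *Fabp4* value was 1.29 (adjusted p = 0.019), which sets the lone metastasis library against 3 lungs and holds no spread between metastases. *Trem2* was at 113 CPM in the metastasis library against 77.0, 82.9, 47.1 and 40.9 CPM in lung, *Tyrobp* at 3031 against 2081, 1929, 2021 and 1408 CPM, and *Cd36* at 142 against 211, 216, 270.2 and 381 CPM. Their log2 differences were 1.06 ± 0.39 (SE), 0.80 ± 0.28 (SE) and -0.85 ± 0.36 (SE), all at an adjusted p of 0.67. *Apoe*, *Lgals3* and *Abca1* had differences of 0.52 ± 0.65 (SE), 0.48 ± 0.37 (SE) and -1.03 ± 0.40 (SE), none of them called.

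Classical monocytes, the blood precursors of many macrophages, numbered 38, 156, 374 and 188 in lung, 51 and 102 in primary tumor replicates 1 to 3 and 4, and 24 in 1 metastasis library. Against lung, 1 of the 9 members tested was called in primary tumors, where 1.38% of 7676 genes were. It was *Fabp5*, at 116, 54.7, 23.2 and 29.4 CPM in lung, 80.2 CPM in the metastasis library and 184 and 211 CPM in primary tumors. Both primary tumor libraries were above every lung library. This was a log2 difference of 2.13 ± 0.46 (SE, adjusted p = 0.037), or 4.37-fold. The call was lost without primary tumor replicates 1 to 3 (0.14), without primary tumor replicate 4 (0.33) and without lung replicate 5 (0.056), with the melanoma profile subtracted (log2 difference 2.01, adjusted p = 0.059) and with DESeq2 (adjusted p = 0.28). With the sequencing run as a block it was 1.45 (adjusted p = 0.012). *Trem2* was at 59.3, 53.6, 34.9 and 29.4 CPM in lung and 72.7 and 111 CPM in primary tumors, which did not overlap, with a log2 difference of 1.23 ± 0.32 (SE, adjusted p = 0.087). *Cd36* was at 53.9, 22.2, 41.3 and 59.8 CPM in lung and 18.2 and 12.9 CPM in primary tumors, with -1.35 ± 0.44 (SE, adjusted p = 0.17). *Apoe* overlapped, at 1219 and 4245 CPM in the pair of primary tumor libraries and 1931, 2752, 1116 and 1449.5 CPM in lung. *Fabp4* did not pass the filter on low counts in that fit. In the fit that kept the lone metastasis library, where its spread was taken to be that of the others, *Fabp4* was at 102 CPM in metastases against 0, 8.55, 7.62 and 16.7 CPM in lung (log2 difference 3.47 ± 0.63, SE, adjusted p = 0.087), and 0 members were called for metastases, with 0.0601% of 8315 genes called.

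Nonclassical monocytes, which had the highest mean *Fabp4* of the cell types of lung, numbered 131, 335, 993 and 371 in lung, 102, 34 and 21 in metastasis replicates 1 to 3, 4 and 6, and 25 in primary tumor replicate 4. *Fabp4* was at 340.4, 389, 252 and 312 CPM in lung, 864, 235 and 622 CPM in metastases and 339.9 CPM in the primary tumor library, with a log2 difference of 0.86 ± 0.33 (SE, adjusted p = 0.80) for metastases. None of the 10 members was called there by edgeR or DESeq2, 1 (*Fabp4*) had an unadjusted p under 0.05, and 0.158% of 6976 genes were (11 genes, and 392 at an unadjusted p under 0.05). *Fabp5* was at 42.9, 59.3, 31.0 and 48.8 CPM in lung and 58.7, 21.0 and 68.3 CPM in metastases, which overlapped, and at 298 CPM in the primary tumor library, above them all. In the fit that kept this 1 library of 25 cells, its spread was taken to be that of the other tissues, so the difference has no replicate check. The *Fabp5* value from lung was 2.81 ± 0.45 on the log2 scale (SE, adjusted p = 0.015), with 0.0794% of 7553 genes below the threshold. *Trem2* was at 8.58, 17.2, 10.8 and 18.1 CPM in lung, 21.6, 12.6 and 0 CPM in metastases and 74.6 CPM in the primary tumor library, and that log2 difference was 2.51 ± 0.75 (SE, adjusted p = 0.70). *Cd36*, which these cells carry at 368, 361, 736 and 601 CPM in lung, was at 377, 704 and 341 CPM in metastases and overlapped.

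Outside the macrophages and monocytes, 142 tests of members in 17 comparisons of 11 cell types gave 26 calls, 20 higher and 6 lower. *Fabp5* accounted for 7 and *Lgals3* for 5 of the higher calls, and *Cd36* for 4 of the lower ones, while *Trem2* had none. Shares of all genes called in these comparisons ran from 0 (NK cells, 0 of 9290 genes, 290 at an unadjusted p under 0.05 and 3 called by DESeq2) to 21.8% (venous or large vessel endothelium, primary tumor against lung). Of the 24 calls between tumor and lung, 22 had a value with the melanoma profile subtracted and 14 were still made, among them 4 of 7 for *Fabp5* and 2 of 5 for *Lgals3*. The pair without a value, *Fabp5* and *Abca1* in general capillary cells, did not pass the filter on low counts after subtraction. With the sequencing run as a block, *Fabp5* in general capillary cells (adjusted p = 0.071), *Abcg1* in venous or large vessel endothelium of primary tumors (adjusted p = 0.052) and its *Cd36* between the tumor sites (adjusted p = 0.061) were not called, and club cells and conventional dendritic cells could not be fitted. The remaining calls were *Cd36* and *Lpl* of venous or large vessel endothelium between metastases and primary tumors, where 3.63% of genes were called.

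Venous or large vessel endothelium had the most calls, with 21.8% of 8354 genes called in primary tumors and 8.65% in metastases, and melanoma markers summed to 189.5 to 1498 CPM in primary tumors, 505 to 7255 CPM in metastases and at most 19.8 CPM in lung. *Fabp4*, a carrier that endothelium uses to handle fatty acids, was at 328, 68.5, 276 and 138 CPM in lung replicates 1, 4, 5 and 6 and at 2488, 2527, 1598 and 1457 CPM in primary tumor replicates 1 to 3, 4, 5 and 6. The primary tumor libraries were all above those of lung, by 3.35 ± 0.51 (SE, adjusted p = 0.00015) on the log2 scale (10.2-fold). *Abca1*, the cholesterol exporter, was at 28.9, 20.4, 41.1 and 39.6 CPM in lung and 198, 211, 224 and 339.6 CPM in primary tumors (log2 difference 2.94 ± 0.36, SE, adjusted p = 2.2e-05). *Cd36* ran the opposite way, at 1143, 1369, 1313 and 2011 CPM in lung, 796, 232 and 293 CPM in metastasis replicates 4, 5 and 6 and 253, 114, 88.0 and 128 CPM in primary tumors. Its log2 difference from lung was -3.32 ± 0.41 (SE, adjusted p = 2.2e-05) in primary tumors and -1.73 ± 0.43 (SE, adjusted p = 0.020) in metastases. The calls of *Fabp4*, *Abca1* and *Cd36* in primary tumors held in all 11 fits with 1 library left out and with the melanoma profile subtracted. In metastases the *Cd36* call was lost without metastasis replicate 5 (0.14) and without metastasis replicate 6 (0.068). *Abca1* was also called in metastases (log2 difference 1.62 ± 0.40, SE, adjusted p = 0.017), where the groups overlapped and the call was lost without metastasis replicate 5 (0.081) and without metastasis replicate 6 (0.078). The replicate number as a block ended this call too.

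*Lpl* in the same endothelium was at 65.1, 66.6, 57.1 and 254 CPM in lung, 786, 34.5 and 38.5 CPM in metastases and 9.20, 10.2, 12.8 and 3.04 CPM in primary tumors. It was lower in primary tumors than in lung (log2 difference -3.61 ± 1.00, SE, adjusted p = 0.016), a call lost without primary tumor replicate 6 (0.063) and without lung replicate 6 (0.055). *Abcg1* was higher there (log2 difference 0.74 ± 0.25, SE, adjusted p = 0.045), with 67.5, 44.4, 33.8 and 69.2 CPM in lung and 82.8, 73.8, 70.9 and 98.0 CPM in primary tumors. That call was lost without primary tumor replicates 1 to 3 (0.066), without primary tumor replicate 4 (0.079), without primary tumor replicate 5 (0.066), without primary tumor replicate 6 (0.16), without lung replicate 4 (0.11) and without lung replicate 5 (0.20). *Fabp5* was at 69.9, 29.6, 19.2 and 33.0 CPM in lung, 29.1, 1144 and 267 CPM in metastases and 202, 207, 139 and 194 CPM in primary tumors, with 3.95 ± 0.68 (SE, adjusted p = 0.0019) in metastases and 2.43 ± 0.65 (SE, adjusted p = 0.013) in primary tumors. Metastasis replicate 4 lay inside the range of lung. With the melanoma profile subtracted the first was 4.08 (adjusted p = 0.0050) and still called. The second was lost without lung replicate 5 (0.056) and with the profile subtracted (0.078). *Lgals3* was called in both sites (log2 difference 4.94 ± 0.75, SE, adjusted p = 0.00076 in metastases and log2 difference 3.25 ± 0.73, SE, adjusted p = 0.0037 in primary tumors), and in neither once the melanoma profile was subtracted (0.31 and 0.10). In metastases it was at 38.8, 902 and 326 CPM, under the lymphocytes of each library.

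In neutrophils of metastases, *Fabp5* was at 185, 555 and 313 CPM (replicates 1 to 3, 5 and 6) against 167, 61.5, 72.9 and 68.9 CPM in lung, and *Lgals3* at 621, 1519 and 1155 CPM against 424, 381, 316 and 274 CPM. Neither overlapped with lung, and 7.39% of genes were called in this comparison. The melanoma markers summed to 692 to 7752 CPM in these metastasis libraries and to 22.7 to 30.3 CPM in lung. The log2 differences were 2.19 ± 0.43 (SE, adjusted p = 0.0096) and 1.79 ± 0.35 (SE, adjusted p = 0.0093), and both calls held with the melanoma profile subtracted (0.021 and 0.037). That of *Fabp5* was lost without lung replicate 5 (0.056). Of the metastasis libraries, all 3 had more *Fabp5* than their lymphocytes, and for *Lgals3* replicate 5 had less. *Cd36* was also called, with lower values (log2 difference -2.86 ± 0.71, SE, adjusted p = 0.027), at 8.39, 13.2 and 12.0 CPM against 15.1, 30.8, 56.8 and 175 CPM, a call lost without metastasis replicate 6 (0.14) and with the melanoma profile subtracted (0.064). In each lung library these values lay under those of the pooled lymphocytes (46.7, 83.3, 65.6 and 324 CPM). In lung replicate 4 the neutrophils lay under B cells (244 CPM) but above T cells (17.5 CPM) and NK cells (21.3 CPM). The part of free RNA was not tested, and no change of *Cd36* in neutrophils is read from these values. Between metastases and primary tumors 0 of the 7 members tested were called in neutrophils by edgeR or DESeq2, 1 (*Fabp5*) had an unadjusted p under 0.05, and 0.0741% of genes were called. Conventional dendritic cells of primary tumors had *Fabp5* at 2784 and 724 CPM against 108 and 99.4 CPM in the 2 lung libraries with enough of them, where 1.28% of genes were called. At a log2 difference of 3.98 ± 0.54 (SE, adjusted p = 0.0028), it held with the melanoma profile subtracted (0.0030). Each tissue has 2 libraries here, which lay far apart in primary tumors. A fit with 1 library left out holds no spread in that tissue and is no check.

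Capillary endothelium of metastases was measured in libraries with much melanoma RNA, with marker sums of 1536 to 6700.4 CPM in aerocytes and 413 to 7439 CPM in general capillary cells. In aerocytes 3.19% of genes were called. These gas exchange capillaries had *Fabp5* at 358 and 136 CPM in metastasis replicates 5 and 6 against 2.22, 0, 6.41 and 12.0 CPM in lung, *Lgals3* at 962 and 607 against 5.56, 4.53, 16.6 and 28.7 CPM, and *Apoe* at 339 and 186 against 8.89, 17.2, 17.6 and 74.1 CPM. The log2 differences were 6.01 ± 0.60 (SE, adjusted p = 0.00011) for *Fabp5*, 6.10 ± 0.49 (SE, adjusted p = 2.4e-05) for *Lgals3* and 3.59 ± 0.58 (SE, adjusted p = 0.0043) for *Apoe*. With the melanoma profile subtracted the adjusted p was 0.0017, 0.0020 and 0.21, so the call of *Apoe* was lost. The few lymphocytes of replicates 5 and 6 (7 and 17 cells) had *Lgals3* at 1797 and 829 CPM, above these aerocytes in both, and *Fabp5* at 269 and 176 CPM, above them in replicate 6. They are too few for a firm floor, and 16 and 21 of their *Lgals3* UMIs came from T cells. The part of free RNA in the aerocytes was not tested, and no change of *Lgals3* in them is read from these values. In lung their *Fabp5*, at 0 to 12.0 CPM, is near 0, so its log2 difference is no measure of size. The call of *Fabp5* was lost without metastasis replicate 5 (0.50), and that of *Apoe* without metastasis replicate 5 (0.58). In general capillary cells *Abca1* (log2 difference 2.38 ± 0.45, SE, adjusted p = 0.034), *Fabp5* (log2 difference 4.20 ± 0.76, SE, adjusted p = 0.027) and *Lgals3* (log2 difference 4.43 ± 0.86, SE, adjusted p = 0.043) were called, with 0.413% of 7499 genes called. *Abca1* was at 101, 30.9, 30.8 and 112 CPM in metastases and 8.39, 9.60, 17.4 and 13.7 CPM in lung. *Fabp5* was at 23.4, 24.3, 411 and 134 CPM in metastases and 10.8, 8.06, 9.50 and 13.7 CPM in lung. The call of *Abca1* was lost with the replicate number as a block, without metastasis replicates 1 to 3 (0.067), without metastasis replicate 6 (0.18), without lung replicate 1 (0.094) and without lung replicate 4 (0.092). That of *Fabp5* was lost without metastasis replicate 5 (0.079), without metastasis replicate 6 (0.085), without lung replicate 1 (0.085), without lung replicate 4 (0.082) and without lung replicate 5 (0.085). That of *Lgals3* was lost without metastasis replicate 5 (0.097), without metastasis replicate 6 (0.15), without lung replicate 1 (0.13), without lung replicate 4 (0.097) and without lung replicate 5 (0.12). *Lgals3* was not called with the melanoma profile subtracted (0.48). At 117, 72.9, 1001 and 570.4 CPM in metastases it lay under the lymphocytes in every library (233, 127, 1797 and 829 CPM), and *Fabp5* lay above them in replicate 5 alone.

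*Cd36* was called in fibroblasts of primary tumors, at 5.33, 0 and 10.3 CPM (replicates 4, 5 and 6) against 36.1, 37.7 and 398 CPM (replicates 4, 5 and 6). The log2 difference was -4.57 ± 1.12 (SE, adjusted p = 0.030), where 11.9% of 11124 genes were called. The call was lost without metastasis replicate 5 (0.060), without metastasis replicate 6 (0.058), without primary tumor replicate 4 (0.084), without primary tumor replicate 5 (0.093), without primary tumor replicate 6 (0.086) and without lung replicate 6 (0.061), and without lung replicate 6 the log2 difference was -2.44. In lung replicate 6 the value is near the *Cd36* of cells of other kinds in that library, 324 CPM in lymphocytes, 336 CPM in ciliated cells and 457 CPM in club cells. In lung replicates 4 and 5 it is under that of the pooled lymphocytes, and in replicate 4 it is above T cells (17.5 CPM) and NK cells (21.3 CPM). The part of free RNA in these values was not tested, and no change of *Cd36* in fibroblasts is read from them. *Fabp5* of the fibroblasts was at 268, 131 and 278 CPM against 3.01, 18.9 and 64.0 CPM, with 2.88 ± 0.74 (SE, adjusted p = 0.035), and was not called with the melanoma profile subtracted (0.54). It was also lost without metastasis replicate 5 (0.061), without metastasis replicate 6 (0.058), without primary tumor replicate 4 (0.079), without primary tumor replicate 5 (0.066), without primary tumor replicate 6 (0.11) and without lung replicate 5 (0.096). The last call was *Tyrobp* in club cells, a secretory epithelium that does not use it, at 96.0 and 596 CPM in lung replicates 5 and 6 and 0 and 20.6 CPM in metastasis replicates 5 and 6, where 1.39% of 4526 genes were called (log2 difference -5.17 ± 1.06, SE, adjusted p = 0.036). It was lost without metastasis replicate 5 (0.72) and without metastasis replicate 6 (0.38) and with the melanoma profile subtracted (0.23).

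Cells named melanoma were 21037 over all libraries. Unnamed cells of the sorted libraries also carried the melanoma markers and entered no comparison. These summed to 11490 to 15926 CPM in unnamed cells of primary tumors, beside 15747 to 17136 CPM in the named ones. In metastases they summed to 7281 to 19584 CPM, beside 21780 to 21889 CPM. Only cells named melanoma were compared between the sorted MM libraries of lung metastases and primary tumors (2 each). Here 0 of the 9 members tested were called by edgeR or DESeq2, 3 (*Cd36*, *Fabp5* and *Lgals3*) had an unadjusted p under 0.05, and 4 of 13310 genes were (0.0301%, with 588 genes at an unadjusted p under 0.05). Over the 5 libraries they carried *Apoe* at 678 to 1151 CPM and *Abca1* at 37.6 to 119 CPM, and every library of C1q macrophages was above them for *Apoe*. *Tyrobp* reached 7.17 CPM, *Fabp4* 15.6 CPM and *Abcg1* 0.896 CPM. In the sorted libraries, replicates 4 and 5, *Fabp5* was at 425 and 860.2 CPM in metastases and 1356 and 1579.6 CPM in primary tumors, with no overlap and a log2 difference of -1.12 ± 0.35 (SE, adjusted p = 0.79). Their *Cd36* was at 22.4 and 1.12 CPM and 0.669 and 0.0693 CPM, with 4.97 ± 1.54 (SE, adjusted p = 0.78). By the names in the files, replicate 5 of both sites came from the same mouse and replicate 4 did not, and the replicate number is here also the sequencing run. With the replicate number as a block, *Fabp5* at -1.20 (adjusted p = 0.0037), *Cd36* at 4.77 (adjusted p = 6.8e-07) and *Fabp4* at 1.93 (adjusted p = 0.036) were called. With 2 libraries a site and a block, that fit keeps hardly any spread between libraries, so its p-values are weak ground. *Cd36* of primary tumors is near 0, and lymphocytes of metastasis MM replicate 4 had 11.6 CPM. The part of free RNA was not tested, and no change of *Cd36* in melanoma cells is read from these values.

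The members sit in wider lipid pathways, for which 89 further genes were listed. They are of 6 kinds, namely LXR and cholesterol efflux, PPAR and lipid droplets, partners of TREM2, lipid synthesis, uptake receptors and lysosomal breakdown. In C1q macrophages, 71 of them were tested. In metastases against lung 12 were higher and 4 lower (of all genes 3.21% and 2.7%), in primary tumors against lung 9 were higher and 1 lower (of all genes 2.77% and 3.06%), and 0 were called between the tumor sites, where 7 had an unadjusted p under 0.05 and DESeq2 called 0. Among the 17 genes listed as partners of TREM2 or as genes of lipid-associated macrophages, 15 were tested, and 4 were higher and 1 lower in each tumor site. Their median log2 difference was 0.08 in metastases and -0.10 in primary tumors, against medians of all genes of -0.0050 and -0.031. *Spp1*, which encodes osteopontin, was at 17.9 ± 13.2 CPM in lung (SD, n = 4) and at 1665 ± 927 CPM in metastases (SD, n = 4). It rose by 6.36 ± 0.59 (SE) in metastases (adjusted p = 2.0e-05) and by 5.76 ± 0.62 in primary tumors (adjusted p = 6.5e-05) on the log2 scale, and led cluster M11. *Gpnmb* rose by 5.83 ± 0.92 and 3.76 ± 1.05, but melanoma cells carry it at 2157 CPM, and with their profile subtracted it was 4.32 (adjusted p = 0.0083) and 2.58 (0.15). *Plaur*, the urokinase receptor, rose by 2.64 ± 0.54 in primary tumors (adjusted p = 0.0073). In primary tumors the call of *Gpnmb* was lost without primary tumor replicates 1 to 3 (0.25), without primary tumor replicate 4 (0.068), without lung replicate 1 (0.071), without lung replicate 4 (0.096), without lung replicate 5 (0.10) and without lung replicate 6 (0.090), and that of *Plaur* without primary tumor replicates 1 to 3 (0.20).

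Lipid droplet genes moved in part. Of 15 genes listed for PPAR and lipid droplets, 9 were tested, 2 were higher in metastases and 1 in primary tumors. *Hilpda*, which protects droplet triglyceride from lipolysis under hypoxia, rose by 4.04 ± 0.65 (adjusted p = 0.0013) and 3.49 ± 0.69 (adjusted p = 0.0058). In primary tumors its call was lost without primary tumor replicates 1 to 3 (0.11). Of 12 genes of the LXR receptors and cholesterol efflux, 10 were tested, with 2 higher and 2 lower in metastases and 1 higher in primary tumors. *Apoc2*, an apolipoprotein that activates lipoprotein lipase, rose by 3.15 ± 0.42 (adjusted p = 0.00036) and 2.68 ± 0.45 (adjusted p = 0.0020), beside an *Apoe* that was not called, and its call in primary tumors was lost without primary tumor replicates 1 to 3 (0.059). All 16 genes of lysosomal lipid breakdown were tested, and 3 were higher in metastases and 1 in primary tumors. *Gla*, a lysosomal galactosidase that trims glycolipids, rose by 2.55 ± 0.55 in metastases (adjusted p = 0.0092). Of 9 uptake receptors 8 were tested, with 1 higher and 1 lower in metastases and 2 higher in primary tumors. Of 20 genes of cholesterol and fatty acid synthesis 13 were tested, and 0 were called by edgeR or DESeq2, with 4 at an unadjusted p under 0.05 in metastases and 0 in primary tumors. Among the genes that fell, *Abca9* in metastases and *Axl* in both tumor sites were named after their values were seen. *Axl*, a receptor for dying cells, fell by 1.13 ± 0.30 (adjusted p = 0.035) in metastases and 1.46 ± 0.36 (adjusted p = 0.024) in primary tumors on the log2 scale. The call of *Axl* in metastases was lost without metastasis replicate 4 (0.0502), without metastasis replicate 5 (0.080), without metastasis replicate 6 (0.10), without primary tumor replicates 1 to 3 (0.057), without primary tumor replicate 4 (0.057), without lung replicate 4 (0.078), without lung replicate 5 (0.10) and without lung replicate 6 (0.088), and in primary tumors without primary tumor replicates 1 to 3 (0.27), without primary tumor replicate 4 (0.25), without lung replicate 5 (0.069) and without lung replicate 6 (0.063).

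In the other macrophages and monocytes fewer of these genes were called. Alveolar macrophages had 0 of 84 (0.0102% of all genes), with 11 at an unadjusted p under 0.05 and 2 called by DESeq2 (Ctsk and *Spp1*). Classical monocytes of primary tumors had 4 higher of 71 (1.38% of all genes were called), namely *Gpnmb* (4.86 ± 0.69), *Cd63* (3.51 ± 0.47), *Lgals1* (1.28 ± 0.25) and *Ctsl* (1.12 ± 0.23, a lysosomal protease). Nonclassical monocytes of metastases had 2 higher of 67 (0.158% of all genes were called), *Gpnmb* (6.05 ± 0.83) and *Cd63* (3.46 ± 0.43). Melanoma cells carry *Gpnmb*, *Cd63* and *Lgals1* at means of 2157, 3242 and 5000.3 CPM. With their profile subtracted, *Cd63* and *Lgals1* were not called in classical monocytes (0.066 and 0.057), and in nonclassical monocytes neither *Gpnmb* nor *Cd63* passed the filter on low counts, so neither was called. In these monocytes all 4 calls were lost without primary tumor replicate 4 (0.19, 0.14, 0.50 and 0.35 in the order named), that of *Lgals1* also without lung replicate 5 (0.056), and that of *Ctsl* without primary tumor replicates 1 to 3 (0.12), without primary tumor replicate 4 (0.35), without lung replicate 5 (0.099) and without lung replicate 6 (0.052). In nonclassical monocytes the call of *Gpnmb* was lost without metastasis replicate 6 (0.092).

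Genes with the pattern most like each member were looked up over 46 means of cell type and tissue, among 13374 genes, by Pearson's r of log2(CPM + 1). The means share libraries and depth, so r is a description without a test. *Tyrobp* ran closest with *Fcer1g* (0.98) and *Fcgr3* (0.95). *Trem2* ran with *Ms4a6d* (0.86), *Fcgr1* (0.86) and *Cd68* (0.86), and *Abcg1* with *Arhgap25* (0.89). *Cd36* ran with *Hpgd* (0.85) and *Ace* (0.82). *Apoe* was most like *Blvrb* (0.79) and *Ctsb* (0.79). *Lgals3* was most like *Rnh1* (0.83) and *Gapdh* (0.82), and *Fabp5* like *Ldha* (0.78) and *Birc5* (0.76). The closest genes to *Lpl*, *Abca1* and *Fabp4* were *Pltp* (0.71), *Abl2* (0.65) and *Ackr1* (0.58).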

How the data were processed

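The authors deposited a matrix of raw UMI counts per gene and cell, from 10x libraries read with Cell Ranger 6.1.1 on GRCm38 and handled in Seurat 3.2.2, per the submitters' processing notes. They had removed cells by quantiles of detected genes and of mitochondrial and ribosomal share, which can take out very active or very small cells. Their second matrix, of normalized values, was not used. Cells were mapped to 16 samples by library name. Some names carry another replicate number than the titles (lung replicate 1 among them) and were matched by run or mouse. Library names with identical cells (5) were counted once. Of these, 1 name matched no label and was not used. It names a sorted MM library but holds the cells and counts of metastasis replicate 6, whose sort and mouse are therefore in doubt. The other identical names belong to the labels of the highest-numbered replicates of the metastasis TME and the primary tumor TME. Those labelled samples therefore have no cells of their own here. The label of sorted MM cells of metastasis replicate 6 was matched to no name and has no cells here. Shared barcodes between distinct libraries were counted.

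Cells were clustered in Seurat 5.3.0 (2000 variable genes without the members and listed pathway genes, 17 principal components, 20 neighbours, resolution 0.5), and myeloid cells a second time. A cluster took the name of a marker list with at least 3 markers at a log2 fold above 1 in at least 10% of its cells. The rules that a tie went to the list with more markers among the top 10 genes, and that no other list had more of them, were added after the clusters were seen, so a difference from the study may come from rebuilt names. No doublet caller was run, and the 5% of cells with most UMIs were left out as an alternative.

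Counts were summed per library and cell type (at least 20 cells) and tested in edgeR 4.0.16 (quasi-likelihood, filterByExpr, TMM scaling, Benjamini-Hochberg adjustment over all genes tested, R 4.3.3), with 1 fit per cell type over the tissues that had 2 or more libraries. Alveolar macrophages had 1 metastasis library. SE is the SE of the log2 difference. The p-values measure the spread between these libraries, which can hold mouse, run and gate. Binomial intervals are exact (95%), and intervals and limits of a count of 0 cover counting error only. Shares of cells were taken after each cell was thinned to 1000 UMIs, leaving out shallower cells. The alternatives were DESeq2 1.42.0, its size factors in edgeR, no filter on low counts, each library left out, the replicate number as a block, at least 10 or 50 cells, resolution 1.0, members left in the clustering and replicates 5 and 6 alone. A subtracted melanoma profile, cluster M4 alone, the sequencing run in the library names as a block and tissues with 1 library kept were added after the data were seen. The test was tried on simulated data with 200 changed genes. Tables were made in pandas 2.3.3 and numpy 2.4.6.

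The members, marker and pathway lists were chosen with earlier results of these data known. Of the pathway genes called, at most 5 per comparison with the largest differences and a mean of at least 20 CPM were named, and in other cell types members that were called or had a mean of at least 100 CPM. Gene positions come from the GRCm38 annotation and promoters from RefSeq. Some genes of the pathway lists are counted but not reported by name here.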

Additional observations from a re-analysis of the deposited data

Results flagged for a closer look

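Single libraries far from the others of their group were looked for in 76 groups of 4 libraries, and 7 were found. The groups share libraries, so no number expected by chance is given. In unchallenged lung, replicate 6 accounted for 5 of them, and it has the lowest median UMIs a cell of the 4 lungs. Its *Fabp4* in C1q macrophages was 34.1 CPM, where the other 3 libraries had none and the lymphocytes of replicate 6 had 89.9 CPM. Its *Abcg1* in alveolar macrophages was 1116 CPM, where the median of the others was 1551 CPM. In aerocyte capillary endothelium its *Apoe* was 74.1 CPM (median of the others 17.2 CPM). In venous or large vessel endothelium its *Lpl* was 254 CPM (median of the others 65.1 CPM) and its *Lgals3* 49.5 CPM (median of the others 9.95 CPM). Metastasis replicate 4 had the lowest *Lpl* in C1q macrophages, 17.9 CPM from 24 cells, where the median of the others was 209.8 CPM. In neutrophils of lung, *Fabp5* of replicate 1 was 167 CPM, where the median of the others was 68.9 CPM.

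Venous or large vessel endothelium differed between the tumor sites themselves, where 3.63% of genes were called by edgeR's quasi-likelihood test with Benjamini-Hochberg adjustment. *Cd36* was higher in metastases than in primary tumors, at 796, 232 and 293 CPM in metastasis replicates 4, 5 and 6 and 253, 114, 88.0 and 128 CPM in primary tumor replicates 1 to 3, 4, 5 and 6, and the sites overlapped. This gave a log2 difference of 1.59 ± 0.42 (SE, adjusted p = 0.047). The call was lost without metastasis replicate 4 (0.21), without primary tumor replicate 4 (0.13), without primary tumor replicate 5 (0.14), without primary tumor replicate 6 (0.13), without lung replicate 1 (0.051), without lung replicate 4 (0.057) and without lung replicate 5 (0.057). *Lpl* was at 786, 34.5 and 38.5 CPM in metastases and 9.20, 10.2, 12.8 and 3.04 CPM in primary tumors, with no overlap and a log2 difference of 4.78 ± 1.07 (SE, adjusted p = 0.016). The *Lpl* of metastasis replicate 4, which had 23 of these cells, was far above that of the other two. The call was lost without metastasis replicate 4 (0.096) and without primary tumor replicate 6 (0.065). Replicates 5 and 6 of both sites share a mouse each by the names in the files, which leave the mouse of metastasis replicate 6 in doubt. With the sequencing run as a block, *Cd36* was at 1.62 (adjusted p = 0.061) and not called, and *Lpl* at 4.10 (adjusted p = 0.043) was. With the replicate number as a block, *Lpl* was at 4.27 (adjusted p = 0.078) and was not called, *Cd36* at 1.86 (adjusted p = 0.026) was, and so were *Fabp4* at -2.11 (adjusted p = 0.042) and *Abca1* at -1.58 (adjusted p = 0.034).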

How the results depend on the processing

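The main counts of genes called were 405 in C1q macrophages of metastases against lung, 400 in those of primary tumors against lung and 6 between the tumor sites, 1 in alveolar macrophages, 106 in classical monocytes of primary tumors and 11 in nonclassical monocytes of metastases. Members called were 3, 3, 0, 0, 1 and 0 in the same order, 26 in the other cell types and 0 in sorted melanoma cells. Under the alternatives, values of members called in macrophages or monocytes kept direction and call in 113 fits and lost the call in 33, and none changed sign. For calls of the other cell types the numbers were 283 and 76. For members of macrophages and monocytes that were not called, 899 values kept their direction, 58 changed sign and 15 passed the threshold. The values below are those counts, or log2 differences of members that were not called in the comparison named and whose sign changed. Where no cause is given by the setting itself, the cause was not tested.

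With cluster M4 alone, which leaves fewer cells and libraries, genes called were 39 (members 0) in metastases against lung, 195 (members 1) in primary tumors against lung and 1 between the sites. The values were *Apoe* 0.27, *Lgals3* -0.027, *Lpl* 0.42 and *Tyrobp* 0.31 between the sites, *Abca1* -0.10 and *Abcg1* 0.38 in metastases and *Tyrobp* -0.057 in primary tumors. Without the filter on low counts, genes called in C1q macrophages were 705 (members 5) in metastases, 1213 in primary tumors and 232 (members 1) between the sites. They were 9 in alveolar macrophages, 413 (members 5) in classical and 111 (members 1) in nonclassical monocytes, with *Abcg1* -0.049 and *Trem2* -0.034 in the last. DESeq2 called 13 genes between the sites in C1q macrophages, 10 in alveolar macrophages, 0 members in classical monocytes and 24 genes in nonclassical monocytes, with *Apoe* 0.011 between the sites and *Fabp4* 0.34 in primary tumors against lung in C1q macrophages. With the size factors of DESeq2 in edgeR, *Apoe* 0.011 between the sites.

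Of 43 pairs of same-numbered libraries, 10 deviated together with a correlation above 0.1 (range -0.24 to 0.33). The main fits do not pair the libraries by number. The pairs pool those of the tumor sites with those of lung, so this count cannot decide whether the tumor sites are paired. Both pairs of sorted melanoma cells were at 0.33, and with 2 libraries a site they mirror each other. The fits with the number as a block are given beside the main ones. By the names in the files the tumor sites share mice in replicates 5 and 6 and in part of replicates 1 to 3, lung shares none with them, and the names leave that of metastasis replicate 6 in doubt. With the replicate number as a block, genes called in C1q macrophages were 13 between the sites and 200 in primary tumors, 20 in nonclassical monocytes, and members 3 in sorted melanoma cells. The block gave *Apoe* 0.23 between the sites in C1q macrophages and *Abcg1* -0.027, *Cd36* 0.15, *Fabp5* -0.45 and *Trem2* -1.14 in nonclassical monocytes, and *Trem2* in metastases (adjusted p = 0.069) and *Lgals3* in primary tumors (adjusted p = 0.25) were not called in C1q macrophages, nor was *Abca1* in metastases of general capillary (adjusted p = 0.13) and venous endothelium (adjusted p = 0.054), while *Cd36* in metastases in C1q macrophages was (log2 difference -1.34, adjusted p = 0.041). With the sequencing run as a block, members called were 1 in C1q macrophages of primary tumors and 3 in sorted melanoma cells, and genes called 0 in alveolar macrophages and 23 in nonclassical monocytes. It gave *Apoe* 0.25 between the sites and *Fabp4* 0.40 and *Lpl* 0.23 in primary tumors in C1q macrophages, *Lpl* 0.27 in classical monocytes, and *Cd36* 0.015 and *Fabp5* -0.0078 in nonclassical monocytes.

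Leaving out the 5% of cells with most UMIs gave 1 gene between the sites in C1q macrophages and 63 genes (members 0) in classical monocytes. The values were *Abca1* -0.019 in C1q macrophages of metastases, *Apoe* -1.25 in alveolar macrophages and *Abcg1* -0.0032 and *Cd36* 0.027 in nonclassical monocytes. With the members left in the clustering, genes called were 55 (members 0) in classical and 3 in nonclassical monocytes, with *Apoe* 0.026 between the sites and *Abca1* -0.026 in metastases in C1q macrophages, and *Abcg1* -0.086 in nonclassical monocytes. At resolution 1.0 they were 51 (members 0) in classical monocytes, with *Apoe* 0.0018 between the sites in C1q macrophages and *Abcg1* -0.030 in nonclassical monocytes. With the melanoma profile subtracted, 0 genes were called in alveolar macrophages, 0 members in classical monocytes, 0 genes in nonclassical monocytes and 16 members in the other cell types, with *Apoe* 0.073 between the sites in C1q macrophages and *Fabp5* -0.35 in nonclassical monocytes. With at least 50 cells per library, which drops libraries, genes called were 0 between the sites in C1q macrophages and 161 in classical monocytes, with *Tyrobp* 0.10 between the sites. With at least 10 cells per library, or with the lone primary tumor library kept, 18 and 18 genes were called in nonclassical monocytes.

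With 1 library left out, genes called ran 237 to 539 and members 2 to 4 in C1q macrophages of metastases, genes 56 to 601 and members 1 to 3 in those of primary tumors, and genes 0 to 15 and members 0 to 0 between the sites. The ranges were 1 to 37 genes and 0 to 1 members in alveolar macrophages, 19 to 191 genes and 0 to 3 members in classical monocytes, 9 to 19 genes in nonclassical monocytes and 0 to 1 members in sorted melanoma cells. The gene count moved by over 1.5 times in these fits. For C1q macrophages of metastases they were those without metastasis replicate 6 (237) and lung replicate 5 (251). For those of primary tumors they were those without metastasis replicate 5 (601), primary tumor replicates 1 to 3 (56), primary tumor replicate 4 (131) and lung replicate 6 (217). Between the sites they were those without metastasis replicates 1 to 3 (15), 4 (11), 5 (0) and 6 (1), primary tumor replicates 1 to 3 (1) and 4 (0), and lung replicates 1 (0), 4 (12) and 6 (0). For alveolar macrophages it was that without lung replicate 6 (37), for classical monocytes those without primary tumor replicate 4 (19) and lung replicates 1 (162) and 4 (191), and for nonclassical monocytes those without metastasis replicate 4 (19) and lung replicates 5 (18) and 6 (18). Ranges of values that changed sign were *Abcg1* -0.61 to 0.041 in C1q macrophages of metastases, *Fabp4* -0.61 to 7.33 in those of primary tumors, where libraries at 0 make it no bound, and *Apoe* -0.28 to 0.28 and *Tyrobp* -0.34 to 0.11 between the sites. They were *Apoe* -0.50 to 1.32 and *Abcg1* -0.035 to 0.28 in classical monocytes, and *Abcg1* -0.19 to 0.11, *Apoe* -0.43 to 0.70, *Cd36* -0.52 to 0.12, *Fabp5* -0.25 to 0.46, *Trem2* -0.82 to 0.36 and *Tyrobp* -0.17 to 0.35 in nonclassical monocytes.

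C1q macrophages could not be compared with lung at 50 cells per library, since 1 lung library has that many, and primary tumors could not be compared within replicates 5 and 6. Depth limits the low members most. *Fabp4*, *Fabp5* and *Trem2* of C1q macrophages rest on few UMIs in lung, and alveolar macrophages of metastases on 1 library. Libraries of 1 tissue also differ in mouse, run and gate, and which library had which gate is not given.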
